A study of Mus musculus with 2 samples.

Results

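The extracellular matrix genes Col1a1, Col1a2, Col3a1, Fn1, Postn, Tnc, Mmp3, Mmp12, Mmp14 and Timp1 were followed across a lung bearing breast cancer metastases and a control lung. These 10 genes were taken by symbol from the 32285 features of the deposited matrices, and each symbol matched 1 feature. They fall into 4 roles: fibrillar collagen chains, adhesive glycoproteins, metalloproteinases, and an inhibitor of metalloproteinases. The question was whether the matrix genes and the proteases were higher in the core or in the margin of the metastases than in lung far from them and in control lung.

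The data were Visium spatial transcriptomes of 2 lung sections, 1 per condition, in which barcoded spots on a slide capture the mRNA of the tissue above them. A spot covers several cells, often of different types. Per the methods of the study, the metastatic section came from a female Balb/c mouse, 6 to 8 weeks old, that had received 1000000 4T1 cells in the mammary fat pad and was killed after 21 to 23 days; 4T1 is a mouse mammary carcinoma line that spreads to the lung without further intervention. The control section came from an untreated lung, for which the labels give no age or strain. Since each condition was 1 section of 1 lung, condition, animal and library cannot be told apart, no p-value was computed, and every interval covers counting error only.

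Fibrillar collagens form the tensile scaffold of tissue and are made mainly by fibroblasts. Fibronectin, periostin and tenascin-C are adhesive proteins laid down on or beside that scaffold during wound repair and in tumor stroma. Matrix metalloproteinases are secreted or membrane-bound enzymes that cleave these proteins, and tissue inhibitors of metalloproteinases bind and block them.

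Core spots were chosen by 2 genes of 4T1 cells that are not among the members: Csn3, a milk casein, and Etv4, a transcription factor of the PEA3 family. The score of a spot was the mean of log2(CP10k + 1) of both genes, where CP10k stands for counts per 10000 counts of the spot. A spot above 0.344 with at least 2 of its 6 touching spots also above it was core, which gave 100 of 1110 spots. Spots within 200 µm of a core spot were margin (177 spots), spots over 500 µm away were far (570 spots), and the 263 spots between were called intermediate. A single Etv4 count was often enough to pass the threshold, so the core had a ragged outline and 92 of its 100 spots touched a spot outside it. In the control section 12 of 1888 spots exceeded the threshold.

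The rule placed 105 of the 108 Csn3 counts of the section in the core, which follows from its use of Csn3. Of the 9 genes of the 4T1 marker list with at least 50 counts, 2 were at least 2-fold higher in the core than in far lung. These were Csn3 and Etv4 themselves. Another 4 were at least 2-fold lower, so no gene outside the rule was that much higher. Over all features, 22.2% were higher and 15.5% lower. Keratin Krt8 stood at 2.29 CP10k in the core and 1.38 in far lung, whereas Epcam stood at 0.181 and 0.552. The list of 10 genes summed to 9.70 in the core and 21.9 in far lung, 14.1 of the latter from Wfdc2, which lung epithelium also expresses. The regions are therefore named by their rule. Median counts per spot were 15431.5 in the core, 12498 in the margin, 10284.5 in far lung and 9643.5 in the control section. The club cell gene Scgb1a1 took 0.471% of counts in the core, 7.37% in the margin, 24.6% in far lung and 15.2% in the control. Haemoglobin, mitochondrial, surfactant protein, immunoglobulin and Scgb1a1 transcripts together took 2.37% of core counts and 33.9% of far counts. A ratio of core over far lung is smaller when these transcripts are left out of the library size, and that value is given where it took a member below the 2-fold line.

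Levels below are summed counts of a region per 10000 summed counts, with exact 95% Poisson intervals, and ratios carry exact 95% intervals from the split of counts. A gene was called higher or lower when its ratio was at least 2-fold and it had at least 50 counts over both regions. Of the 10 members, 8 had enough counts for core over far lung. Among these 8, 5 were higher in the core (Col3a1, Fn1, Mmp3, Mmp12 and Timp1) and 1 was lower (Postn). Over all 10961 features with enough counts, 22.2% were called higher and 15.5% lower in this comparison. In margin over far lung, 3 of 8 members were higher (Mmp3, Mmp12 and Timp1) and none was lower, beside 12.2% higher and 2.12% lower over 11077 features. The median log2 ratio of the members with enough counts was 1.63 for core over far and 0.81 for margin over far, beside 0.31 and 0.36 over all features. Fewer cells of a type and less RNA per cell cannot be told apart in such spots.

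**Figure D1:**
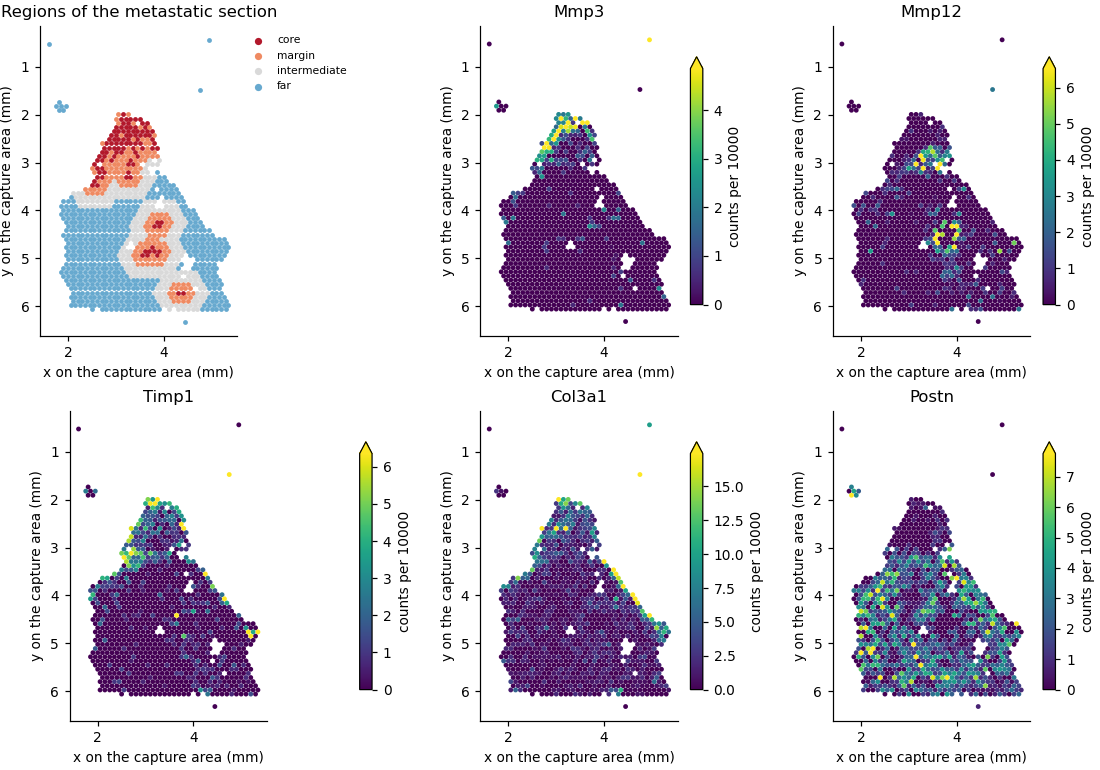
Position of each spot of the metastatic section on the capture area (x and y in mm), coloured by region in the first panel and by counts per 10000 of Mmp3, Mmp12, Timp1, Col3a1 and Postn in the others, with colours capped at the 99th percentile of spots or at 1 where that is higher. Mmp3 lay over the upper core, and core spots of all groups together held 79.4% of its counts. Mmp12 lay in patches beside the core spots, and Timp1 and Col3a1 over the upper core and along the tissue border. Postn lay over the lung below the upper core.

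**Figure D2:**
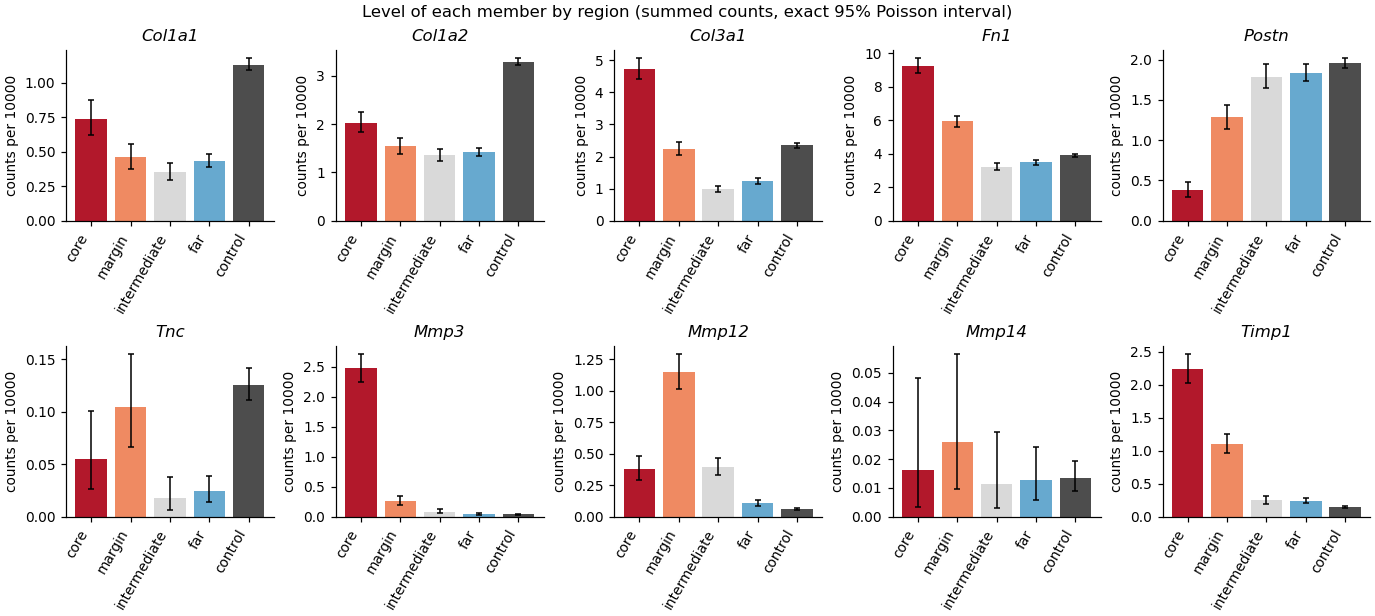
Level of each of the 10 members in the 4 regions of the metastatic section and in the control section, as summed counts per 10000 counts; bars start at 0 and error bars are exact 95% Poisson intervals. Mmp3, Timp1, Col3a1 and Fn1 were highest in the core, Mmp12 was highest in the margin at 1.15, and Postn was lowest in the core at 0.384.

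Of the fibrillar collagen chains, Col3a1, the chain of type III collagen, was the member that stood out. Its level was 4.74 CP10k in the core (95% interval 4.43 to 5.07, 865 counts), 2.23 in the margin, 0.985 in the intermediate zone, 1.24 in far lung and 2.35 in the control section. The core was 3.83-fold above far lung (3.48 to 4.21) and 2.02-fold above the control section (1.88 to 2.17), while the margin was 1.81-fold above far lung (1.62 to 2.02). Single spots overlapped between regions. The middle 50% of core spots ran from 1.61 to 6.32 and that of far spots from 0 to 1.60, and the highest far spot reached 31.3. Without the abundant lung transcripts in the library size the core was 2.60-fold above far lung and 1.55-fold above the control section, the latter below the 2-fold line.

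The chains of type I collagen did not share this pattern. Col1a1, which encodes its alpha 1 chain, stood at 0.740 in the core, 0.459 in the margin, 0.434 in far lung and 1.13 in the control section. Col1a2, which encodes the alpha 2 chain, stood at 2.03, 1.55, 1.42 and 3.29 in the same order. Core over far ratios were 1.71 for Col1a1 (1.38 to 2.10) and 1.42 for Col1a2 (1.26 to 1.61), so neither was called. With the abundant transcripts left out they came to 1.16 and 0.965. Every region of the metastatic section lay below the control section for both chains, and the core was at 0.654 of the control for Col1a1 and 0.616 for Col1a2.

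As a result the mixture of collagen transcripts differed between regions. Col3a1 made up 63.1% (60.5 to 65.7, exact binomial) of the counts of the 3 chains in the core, 52.7% in the margin, 40.0% in far lung and 34.7% in the control section. The share of Col1a1 within type I collagen counts moved little, from 26.7% (22.9 to 30.8) in the core to 23.4% (21.1 to 25.7) in far lung and 25.6% in the control, with overlapping intervals in core and far lung. These shares do not depend on the library size.

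Among the glycoproteins, Fn1 and Postn went opposite ways. Fn1, which encodes fibronectin and was the member with most counts (6632 in the metastatic section), stood at 9.25 CP10k in the core (8.81 to 9.70), 5.92 in the margin, 3.23 in the intermediate zone, 3.49 in far lung and 3.89 in the control section. All 100 core spots and 89.3% of far spots held an Fn1 count. The core was 2.65-fold above far lung (2.49 to 2.82), or 1.80-fold without the abundant transcripts and 1.91-fold in spots thinned to 5000 counts, which takes Fn1 below the line. The core was also 2.38-fold above the control section, or 1.83-fold without the abundant transcripts, and the margin 1.70-fold above far lung. The difference did not rest on a few spots alone, since the median core spot stood at 5.83 and the median far spot at 3.01, but single spots reached 77.7 in the core and 135 in far lung.

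Postn, which encodes periostin, was the only member called lower in the core than in far lung. Its level was 0.384 in the core (0.299 to 0.485, 70 counts), 1.29 in the margin, 1.79 in the intermediate zone, 1.84 in far lung and 1.96 in the control section. The core was at 0.209 of far lung (0.162 to 0.265), and the margin at 0.699 (0.614 to 0.794). In the 8 core spots surrounded by core on all sides, no Postn count was found among 181503 counts, which allows up to 3. A Postn count was present in 32.0% of core spots and 77.2% of far spots, although core spots were deeper. Far lung and the control section differed little, at a ratio of 0.940 (0.882 to 1.00). The markers of alveolar fibroblasts, pericytes and endothelium were likewise lower in the core. All 8 pericyte genes and all 9 endothelial genes were called lower there, as were 9 of 10 alveolar fibroblast genes, beside 15.5% of all features. Whether the lower level of these markers accounts for Postn was not tested.

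Tnc, which encodes tenascin-C, had only 57 counts in the metastatic section, 24 of them in the margin. Its level there was 0.104 (0.0666 to 0.155), against 0.0548 in the core, 0.0241 in far lung and 0.125 in the control section. The margin was 4.31-fold above far lung, but with 41 counts over both regions it was below the minimum of 50 used for calls.

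**Figure D3:**
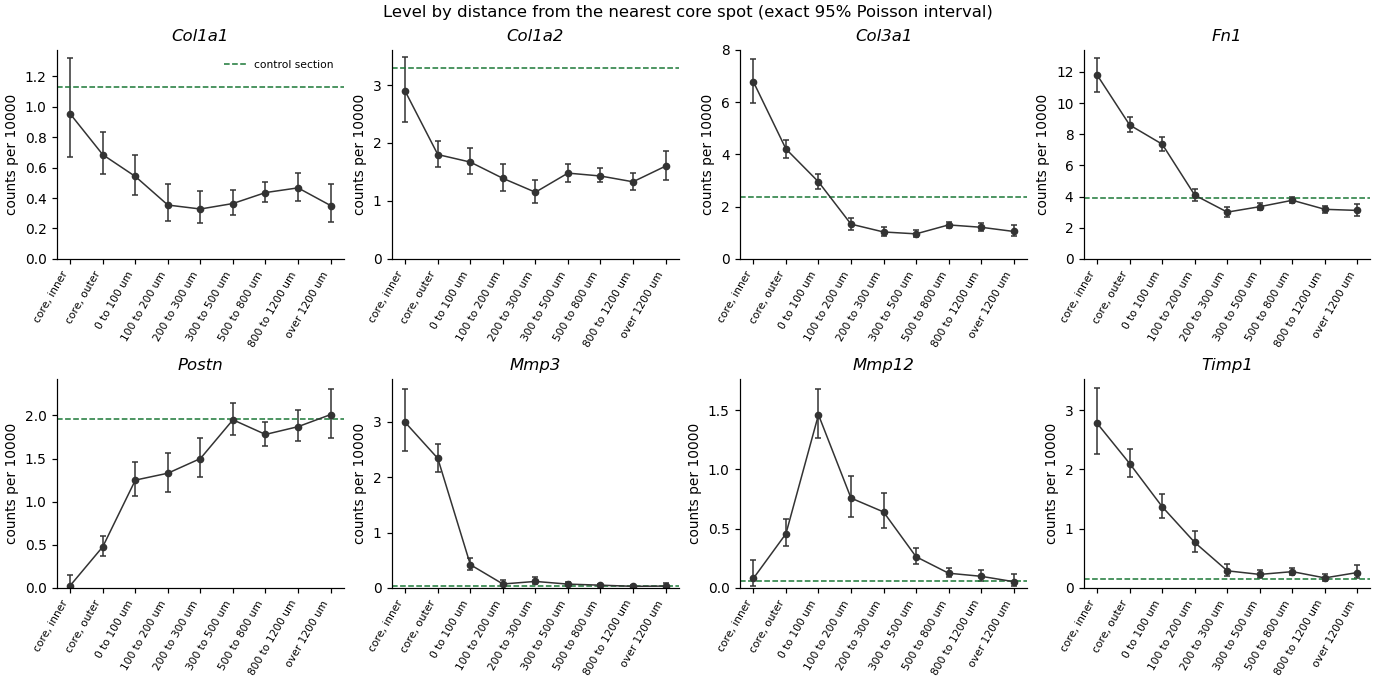
Level of 8 members in bands of distance from the nearest core spot (core inner, 15 spots over 150 µm from any spot outside the core; core outer, the other 85), as summed counts per 10000 with exact 95% Poisson intervals; the dashed line is the level of the control section. Col3a1, Fn1, Mmp3 and Timp1 declined outward from the inner core, Postn did the reverse, and Mmp12 peaked at 1.46 in spots that touched the core.

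The metalloproteinases showed the widest differences, and 2 of the 3 occupied different places. Mmp3 encodes stromelysin-1, which degrades fibronectin, laminin and several collagens and activates other proenzymes. Its level was 2.47 in the core (2.25 to 2.71, 451 counts), 0.264 in the margin, 0.0835 in the intermediate zone, 0.0383 in far lung and 0.0364 in the control section. Far lung and control were alike within their intervals. The core was 64.6-fold above far lung (43.8 to 99.1), rank 4 of the 10961 features, and 9.36-fold above the margin (7.15 to 12.4). The core held 79.4% of the Mmp3 counts of the section with 12.4% of all counts. An Mmp3 count was found in 64.0% of core spots, 21.5% of margin spots, 4.04% of far spots and 3.12% of control spots. Across the margin it went from 0.418 in spots that touched the core to 0.0688 in those that did not. The control section had 74 Mmp3 counts, 43.2% of them in the 94 spots richest in collagen.

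Mmp12, which encodes macrophage elastase, was instead a gene of the margin. Its level was 0.378 in the core (0.294 to 0.479), 1.15 in the margin (1.01 to 1.29, 265 counts), 0.394 in the intermediate zone, 0.105 in far lung and 0.0605 in the control section. The margin was 10.9-fold above far lung (8.42 to 14.4), rank 18 of 11077 features, and 19.0-fold above the control section. The core was 3.61-fold above far lung but at 0.330 of the margin (0.249 to 0.431). Spots of the inner core, over 150 µm from any spot outside it, stood at 0.0794, spots that touched the core at 1.46, and the next 3 bands outward, which end 500 µm from the core, at 0.757, 0.640 and 0.262. Mmp12 thus made up 13.3% of the summed Mmp3 and Mmp12 counts in the core (10.5 to 16.5) and 81.3% in the margin (76.6 to 85.4). Only 49.7% of margin spots held an Mmp12 count, and the highest of them reached 15.2 CP10k. The ratios of Mmp12 over far lung depended on Etv4 in the score. With Csn3 alone, which left 38 core and 51 margin spots, all other spots over 500 µm away became far lung, and Mmp12 was 1.20-fold in margin over far lung and 0.299-fold in core over far lung, while Mmp3 was 34.4-fold and 60.2-fold. In that setting Mmp12 was at 0.249 in core over margin, 5.94-fold in margin over control and 4.95-fold in far lung over control. The macrophage and monocyte marker list was also above far lung around the core. Of its 13 genes, 10 were called higher in the margin and 11 in the core, beside 12.2% and 22.2% of all features. Its sum was 67.3 CP10k in the margin, 50.1 in the core, 29.7 in far lung and 30.9 in the control section. Margin and core thus stood in the same order as for Mmp12. Most of the sum came from the lysozyme gene Lyz2, at 51.1 in the margin and 31.3 in the core. Without Lyz2, a sum chosen after its values were seen, the order was the reverse. The other 12 genes then stood at 16.2 in the margin (15.7 to 16.7), 18.9 in the core (18.2 to 19.5), 4.52 in far lung and 3.54 in the control section. The part of macrophage number in the Mmp12 level was not tested.

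Mmp14, which encodes the membrane-bound MT1-MMP that activates proMMP2, had 22 counts in the metastatic and 27 in the control section. Levels ran from 0.0115 to 0.0260 with wide intervals, and at this depth no difference between regions was detectable. Core over far lung was 1.29 (0.224 to 5.16).

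Timp1 encodes a secreted inhibitor that blocks most matrix metalloproteinases. It stood at 2.24 in the core (2.03 to 2.47, 409 counts), 1.10 in the margin, 0.248 in the intermediate zone, 0.237 in far lung and 0.143 in the control section. The core was 9.47-fold above far lung (7.89 to 11.4) and the margin 4.66-fold (3.82 to 5.70). It was found in 81.0% of core, 54.8% of margin, 17.2% of far and 11.5% of control spots. Timp1 was thus called higher over far lung in core and margin, as Mmp3 and Mmp12 were. Its level in the intermediate zone was near that of far lung. Mmp12 stood at 0.394 in that zone and 0.105 in far lung, and Mmp3 at 0.0835 and 0.0383. Timp1 made up 43.9% of the counts of Timp1, Mmp3, Mmp12 and Mmp14 in the core, 43.4% in the margin and 60.3% in far lung.

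Because Mmp3, Mmp12 and Timp1 had the highest margin over far ratios of the callable members, the 250 bases before their starts are given below from the RefSeq promoter table (GRCm38.p6, 5′ to 3′ on the strand of the gene, all plus). Capitals mark the AP-1 motif TGANTCA and the PEA3 motif AGGAAG, searched on both strands, and no 2 marked motifs overlapped. Mmp3 starts after chr9:7445572-7445821, Timp1 after chrX:20869916-20870165, and Mmp12 has 2 listed starts, after chr9:7344147-7344396 and chr9:7347124-7347373.
Mmp3: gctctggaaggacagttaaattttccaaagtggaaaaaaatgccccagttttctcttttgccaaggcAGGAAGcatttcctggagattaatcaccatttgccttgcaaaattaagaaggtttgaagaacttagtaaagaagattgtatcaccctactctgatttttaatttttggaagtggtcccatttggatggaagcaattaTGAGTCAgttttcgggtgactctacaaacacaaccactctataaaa
Mmp12, first start: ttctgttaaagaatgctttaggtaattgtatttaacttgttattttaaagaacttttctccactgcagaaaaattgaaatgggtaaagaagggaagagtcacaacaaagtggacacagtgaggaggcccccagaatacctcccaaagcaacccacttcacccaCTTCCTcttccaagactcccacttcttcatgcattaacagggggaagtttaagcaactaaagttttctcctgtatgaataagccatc
Mmp12, second start: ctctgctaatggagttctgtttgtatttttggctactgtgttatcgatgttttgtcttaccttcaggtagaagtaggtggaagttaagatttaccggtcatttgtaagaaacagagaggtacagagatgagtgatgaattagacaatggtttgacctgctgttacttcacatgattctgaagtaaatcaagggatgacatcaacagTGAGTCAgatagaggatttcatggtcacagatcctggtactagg
Timp1: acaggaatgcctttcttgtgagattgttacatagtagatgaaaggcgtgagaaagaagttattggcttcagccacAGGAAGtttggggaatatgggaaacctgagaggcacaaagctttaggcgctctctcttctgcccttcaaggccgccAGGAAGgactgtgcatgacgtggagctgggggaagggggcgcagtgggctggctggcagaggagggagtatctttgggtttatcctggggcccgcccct
The letters TGAGTCA stood 46 to 40 bases before the start of Mmp3 and 44 to 38 bases before the second start of Mmp12, while Timp1 had no TGANTCA in its window. The motif TGANTCA was found in 6.75% of the 32851 promoters of that table and before 2 of the 11 starts listed for members. Of the 10 members 8 had an entry, and the windows of the other members held no TGANTCA. The PEA3 letters were found before 6 of these 8 members: at Mmp3, at the first start of Mmp12 and at 2 places before Timp1, and also before Postn, Tnc and Mmp14. Counted by start, they stood before 6 of the 11 starts listed for members, beside 29.5% of all promoters. A match describes the sequence and says nothing about binding.

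**Figure D4:**
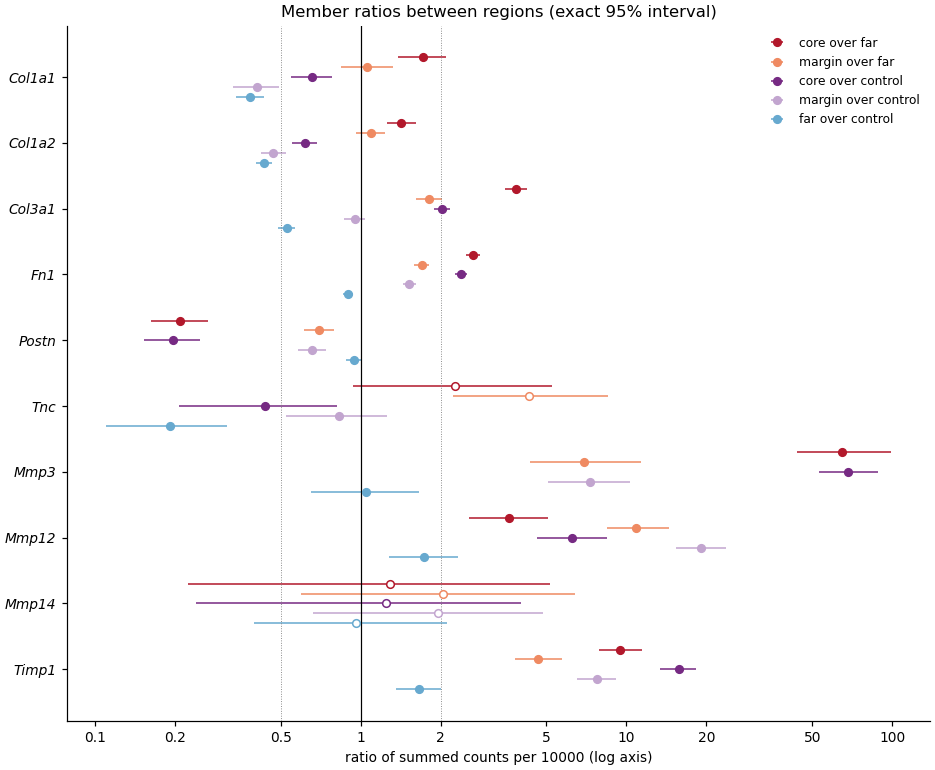
Ratio of summed counts per 10000 (log axis) of each member in 5 comparisons, with exact 95% intervals; open circles are ratios with fewer than 50 counts over both regions, and dotted lines mark 2-fold higher and 2-fold lower. Mmp3 and Timp1 lie farthest right for the core, Mmp12 for the margin, and the type I collagen chains lie left of 1 in each comparison with the control section.

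Set directly against the margin, the core was called higher for 3 of 8 members (Col3a1 at 2.12-fold, Mmp3 at 9.36-fold and Timp1 at 2.03-fold) and lower for 2 (Postn at 0.298 and Mmp12 at 0.330), where 3.62% of 9282 features were called higher and 9.51% lower. Fn1 was 1.56-fold higher in the core (1.45 to 1.68). The calls of Col3a1 and Timp1 lay at the 2-fold line and were lost when the margin was cut to touching spots (1.61-fold and 1.64-fold) or the core to its largest group (1.35-fold and 1.22-fold), where Mmp3 was 5.91-fold and 5.14-fold. They were also lost without the abundant transcripts in the library size, at 1.92-fold and 1.84-fold. With Csn3 alone in the score Mmp3 was 1.75-fold in core over margin, below the line. Mmp12 in core over margin turned to 1.34 when the core groups other than the largest were taken alone.

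Against the control section, 5 of 9 members with enough counts were higher in the core (Col3a1, Fn1, Mmp3, Mmp12 and Timp1) and 2 lower (Postn and Tnc), beside 16.5% higher and 22.8% lower over 13083 features. Mmp3 was 67.9-fold higher there (53.0 to 88.1) and Timp1 15.7-fold (13.4 to 18.3). In the margin 3 of 9 were higher (Mmp3, Mmp12 and Timp1) and 2 lower (Col1a1 and Col1a2), beside 9.77% and 8.34% over 13138 features.

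Lung far from the core also differed from the control section. No member was called higher there and 3 of 9 were lower (Col1a1, Col1a2 and Tnc), beside 0.768% higher and 4.51% lower over 13288 features. Col1a1 was at 0.383 of the control (0.339 to 0.432), Col1a2 at 0.432 (0.404 to 0.462), Col3a1 at 0.527 (0.490 to 0.567) and Tnc at 0.192 (0.110 to 0.314). The smooth muscle and myofibroblast list moved with the collagens, at 5.45 CP10k in far lung and 12.0 in the control section, and the adventitial fibroblast list stood at 34.4 and 49.7; how much of these structures each section cut through was not tested. The control section also held heart muscle transcripts (a summed 35.3 CP10k against 0.564 in far lung), and leaving out the 94 control spots richest in them gave 0.403 for Col1a1 and 0.447 for Col1a2. Timp1 and Mmp12 were 1.65-fold (1.36 to 2.01) and 1.73-fold (1.28 to 2.33) above the control, under the line.

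The outer border of the tissue carried its own matrix signal in the metastatic section. In far lung, spots beside an empty array position stood above the other far spots by 4.55-fold for Col3a1 (3.97 to 5.21), 4.50-fold for Timp1 (3.28 to 6.17), 2.68-fold for Col1a1 and 2.13-fold for Fn1, and by 0.953-fold for Postn. In the control section the same ratios lay between 0.829 and 1.20 for all members. The border spots of the sections were not alike, at 121 of 570 far spots and 506 of 1888 control spots. The mesothelial gene Msln stood at 0.984 in far border spots and 0.0966 in the other far spots, against 1.13 and 0.538 in the control. Upk3b stood at 0.557 and 0.0237, against 0.648 and 0.277. Whether the lining of the control lung carries the matrix signal was therefore not tested. The 28 far spots richest in the 3 collagen chains held 38.7% of far Col3a1 counts and 36.5% of far Timp1 counts, and 24 of them touched another such spot. The mesothelium list, which marks the lining of the lung, was at 13.9 CP10k in these spots and 1.83 in the rest of far lung. The adventitial fibroblast list was also higher in these far spots (64.6 against 33.4), and the smooth muscle list was not (3.34 against 5.52). In the control section the richest 94 spots were high in the adventitial fibroblast list (150 against 46.3) and the smooth muscle list (44.8 against 10.9). The mesothelium list there stood at 5.23 against 3.18. The core shared the border in part, since 27 of its 100 spots lay on it. With all border spots left out, core over far lung was 5.43-fold for Col3a1, 2.26-fold for Fn1, 76.4-fold for Mmp3 and 11.0-fold for Timp1, and far lung over control was 0.340 for Col3a1 and 1.08 for Timp1. Core over control was then 1.85-fold for Col3a1 and 1.73-fold for Fn1, both below the line.

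The core spots formed 6 groups, which were joined where they lay within 500 µm of each other into a larger cluster of 86 spots, a smaller cluster of 12 and an isolated pair. The larger cluster held 104 Csn3 counts and the smaller cluster 1, so the latter rests almost wholly on Etv4. Both had Etv4 counts (188 and 15). The clusters differed in the members. In their cores Col3a1 stood at 5.06 in the larger cluster and 1.25 (0.714 to 2.03) in the smaller, a ratio of 4.06 (2.48 to 7.13). Mmp3 stood at 2.69 and 0.156, the latter from 2 counts, a ratio of 17.3 (4.75 to 143). Timp1 stood at 2.38 and 0.858, a ratio of 2.77 (1.53 to 5.59). Fn1 was closer, at 9.52 and 7.02, a ratio of 1.36 (1.10 to 1.70).

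Mmp12 ran the other way. Its level in the core was 0.252 in the larger cluster and 2.03 (1.33 to 2.97) in the smaller, a ratio of 0.124 (0.0744 to 0.211), and in the margins it was alike at 1.27 and 1.28, a ratio of 0.990. The macrophage and monocyte list stood at 46.4 and 96.2 in the 2 cores and at 71.5 and 68.0 in the margins, of which Lyz2 made up 27.6 and 75.5 in the cores. Its other 12 genes stood at 18.8 (18.2 to 19.5) and 20.8 (18.3 to 23.4) in the cores and at 18.2 and 14.4 in the margins. The AT2 list stood at 48.8 and 211 in the cores, beside 212 in far lung. The endothelial list stood at 7.36 and 32.9, beside 49.2 in far lung. Spots of the smaller cluster thus held more lung tissue transcripts, with the AT2 list at the level of far lung. They are core by the rule only. Over far lung, the smaller cluster alone was 1.01-fold for Col3a1 (0.574 to 1.65), 3.62-fold for Timp1 (1.78 to 6.65) and 19.3-fold for Mmp12 (11.9 to 30.6), with Postn at 0.297 (0.119 to 0.614). The high core levels of Col3a1 and Mmp3 were therefore levels of the larger cluster, while the high Mmp12 level was found around both. In margin over far lung, Mmp3 was 11.0-fold in the larger cluster and 2.02-fold (0.606 to 5.31, 5 counts) in the smaller. Timp1 was 7.23-fold and 1.24-fold (0.728 to 2.00), so the higher margin levels of Mmp3 and Timp1 were also mainly those of the larger cluster.

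**Figure D5:**
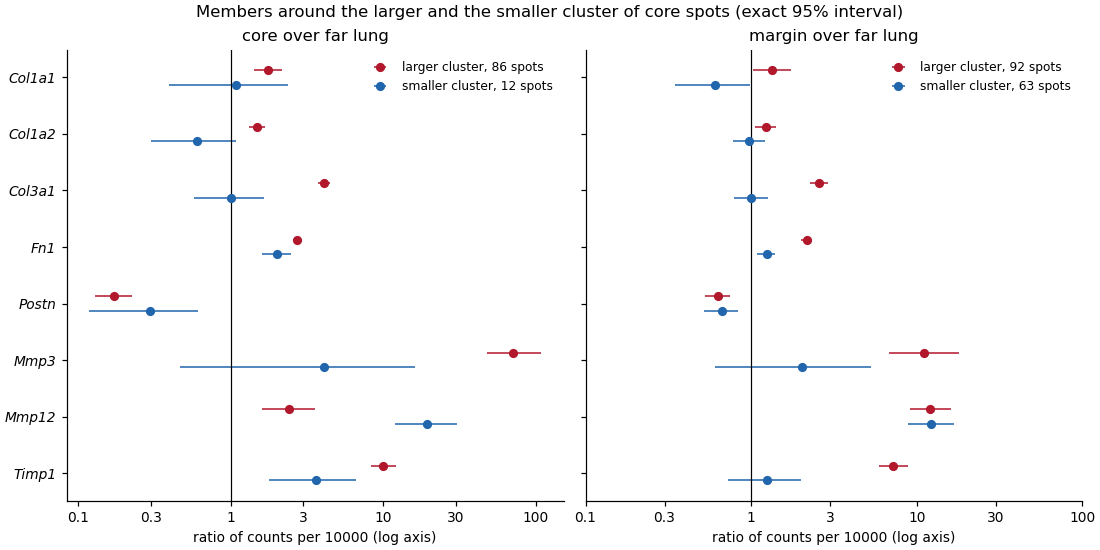
Ratio over far lung (log axis) of 8 members in the core and in the margin of the larger and the smaller cluster of core spots, with exact 95% intervals. In the core the intervals of the clusters are apart for Col3a1, Fn1, Col1a2, Mmp3, Mmp12 and Timp1, and in the margin Mmp12 is near 12-fold in both clusters while Timp1 is 7.23-fold in the larger and 1.24-fold in the smaller.

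Other genes of the matrix were counted from lists set up for this work, and each count is to be read beside the 22.2% of features called higher and the 15.5% called lower in core over far lung. Of the other fibrillar collagen chains, 1 of 2 with enough counts was higher in the core than in far lung: Col5a1, a chain of type V collagen, which nucleates fibrils, at 6.77-fold (0.183 in far lung, 1.24 in the core), while Col5a2 was at 1.33-fold. Of the other collagen chains outside the basement membrane, 2 of 8 were higher (Col16a1, a fibril-associated collagen, at 7.03-fold and Col8a1 at 2.31-fold) and 2 lower (among them Col13a1 at 0.350). Of the enzymes that modify and crosslink collagen, 7 of 21 were higher, led by Adamts14, which trims procollagen, at 9.12-fold and the lysyl oxidase Loxl3 at 6.06-fold, and 3 were lower, with the prolyl hydroxylase P3h2 at 0.133. Median log2 ratios of these lists were 1.59, 0.02 and 0.52, beside 0.31 over all features. The list ratios here and below use the full library size. Without the abundant transcripts all core over far ratios shrink by the same factor, which took Fn1 from 2.65-fold to 1.80-fold. List genes called higher at 2.65-fold or less, and some just above, would then fall below the line. The shares over all features would shift too. Margin over far ratios shrink less, as for Timp1 from 4.66-fold to 3.49-fold, so calls near the line would be lost there too.

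Most basement membrane genes and part of the elastic fibre genes were lower in the core, where 15.5% of all features were. Of 20 basement membrane genes 12 were lower and 3 higher, with the laminin chain Lama2 at 0.100 of far lung and Lamb1 at 2.29-fold. Of 12 elastic fibre genes 6 were lower and none higher, with Ltbp4 at 0.181 and Emilin1, the highest, at 1.93-fold. Of 10 proteoglycan genes 6 were lower, with Fmod at 0.106, and 3 higher, led by the hyaluronan receptor Cd44 at 2.84-fold and decorin (Dcn) at 2.72-fold. Of 14 matricellular genes 6 were lower, with vitronectin (Vtn) at 0.0935, and 3 higher, led by osteopontin (Spp1) at 4.09-fold and Tgfbi at 2.62-fold. At the full library size the matricellular list summed to 23.5 in the core and 22.7 in far lung, a ratio of 1.03 (0.998 to 1.07). That ratio would be lower without the abundant transcripts, so the sums are close for this library size only. In the margin 1 gene of these 4 lists was called lower and 2 higher, beside 2.12% and 12.2% of all features. Tgfbi was at 2.49-fold and Cd44 at 2.24-fold.

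The list of other matrix proteases held cathepsins, Htra1, plasminogen activators with the urokinase receptor Plaur, and enzymes of the Adam and Adamts families, which are metalloproteinases too. Of its 18 genes with enough counts 9 were higher in the core and none lower, beside 22.2% and 15.5% of all features. The 9 were Plau, Plaur, Htra1, Ctsb, Ctsk, Ctsl, Ctss, Adam8 and Adam17, named after their values were seen. The urokinase Plau was 28.4-fold higher, though with 6 counts in far lung, and the serine protease Htra1 7.01-fold, while Adamts1 was at 0.525. In the margin 8 of 17 were higher, beside 12.2% of all features, led by the lysosomal cathepsin Ctss at 5.79-fold. Of 6 other genes of the Mmp family with enough counts, 1 was higher in the core (the gelatinase Mmp2 at 2.30-fold) and 3 lower, with Mmp11 at 0.129. Mmp19 stood at 1.88-fold in the core and 2.31-fold in the margin. Of 9 other protease inhibitors 3 were higher and 2 lower: Serpinb2, an inhibitor of urokinase, was at 5.72-fold and Slpi at 3.93-fold, and Timp3, a matrix-bound relative of Timp1, was at 0.187 of far lung.

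The genes whose levels over the 1110 spots of the metastatic section ran most like each member were sought among 4500 genes with at least 500 counts, by the Pearson correlation of log2(CP10k + 1). These spots share a library, and depth varies among them, so the values are descriptive. Timp1 ran with the complement gene C3 (r = 0.57), the acute phase gene Saa3 (0.57) and the galectin Lgals1 (0.55), and Col3a1 with C3 (0.59), the complement gene Cfb (0.54) and Mgp (0.54). Mmp3 ran with Lgals1 (0.53), S100a4 (0.53) and the tubulin Tubb6 (0.52). Mmp12 ran with Ctss (0.43) and the antigen presentation genes Cd74 (0.42) and H2-Ab1 (0.39), and Postn with the vascular genes Epas1 (0.54), Ramp2 (0.53) and Thbd (0.52). Fn1 ran with Saa3 (0.51), H2-D1 (0.50) and B2m (0.47), and Col1a1 and Col1a2 with C3, Mgp and C4b at 0.31 to 0.41.

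Among the members themselves, Col3a1 and Timp1 correlated most over these spots (r = 0.50), followed by Mmp3 and Timp1 (0.42). Mmp3 and Mmp12 had r = 0.03 over all spots and -0.35 within the 100 core spots, where Mmp12 and Col3a1 had -0.38. The core spots pool the larger and the smaller cluster, which differed in the levels of these genes. The part of that difference in the core correlations was not tested. Within the core, Mmp3 and Timp1 had r = 0.43 and Col1a2 and Col3a1 0.47. Mmp12 and Timp1 had r = 0.07 over all spots and -0.26 within the core.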

How the data were processed

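Raw UMI counts, as deposited by the authors without normalization, were made with Space Ranger 1.3.1 on mm10 per the submitters' processing notes; only spots over tissue were listed. The metastatic section held 1110 spots with 14657881 counts and the control section 1888 with 20329126. Both capture areas use 1 set of positional barcodes, and 858 occurred in both. The score threshold was set by Otsu's method. Regions were not taken from the authors' annotation, and the authors' own region names therefore need not match. The members and gene lists were chosen with earlier results of these data known. The genes named from a list were those with the 2 highest and the lowest core over far ratio and the highest margin over far ratio among genes with at least 50 counts. Region sums, exact Poisson and binomial intervals and ratios were computed with Python 3.11.15, numpy 2.4.6, scipy 1.17.1 and pandas 2.3.3, and plots with matplotlib 3.10.9. Tested on simulated data for core over far lung with 11100 features, all 63 features set 3-fold higher and 69 of 70 set to 0.25 were called, as were 0.670% of unchanged features. The simulated counts varied by counting error only, so these shares give no rate of false calls for the sections. Alternatives were 14 fixed settings and 4 added after seeing the data, covering the core rule, distances, library size, thinning of each spot to 5000 counts (seed 20), spot means, count minimum and spots left out.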

Additional observations from a re-analysis of the deposited data

How the results depend on the processing

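No paired analysis was possible because each condition was 1 section and no fit compared replicates. No section can be left out, and genes near 0.1 CP10k rest on few counts. The 4 settings chosen after seeing the data were a score summed over touching spots, core groups of at least 5 spots, no border spots and no detached spots. The ratios of Mmp3 and Timp1 stayed at least 2-fold in core over far lung, and that of Postn below 1, in all 14 alternatives run for that comparison. With the core groups other than the largest alone, the 4.56-fold ratio of Mmp3 had too few counts for a call. Over all alternatives, 71 counts of called members lay within 1.5 times the main count and 28 did not. Counts of members at least 2-fold higher that did not were these. For core over far lung (main 5), the core groups other than the largest gave 2. For margin over far lung (main 3), Csn3 alone, the 10% of spots with the highest score, the largest core group alone, touching spots only, a minimum of 10 counts and groups of at least 5 spots each gave 5, the 5% of spots with the highest score 6 and the other core groups 1. For core over control (main 5), the other core groups, a library size without abundant genes, thinning, the mean of spots and no border spots each gave 3. For far lung over control (main 0), Csn3 alone, the 5% of spots with the highest score, the mean of spots and the summed score each gave 1. For core over margin (main 3), Csn3 alone and the other core groups gave 0, the summed score 5, and Etv4 alone, the 5% of spots, the largest core group, touching spots only, a library size without abundant genes, thinning and groups of at least 5 spots each 1. Of single ratios called in the main setting, 3 turned side: Mmp12 in core over far lung was 0.299 with Csn3 alone, and with the other core groups alone Col3a1 in core over control was 0.651 and Mmp12 in core over margin 1.34. The cause was not tested.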

Other observations

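Of 16 genes for receptors of the matrix with enough counts, 3 were higher in the core than in far lung and 4 lower, close to the 22.2% higher and 15.5% lower over all features: the integrin subunit Itgav, part of several fibronectin and vitronectin receptors, was at 2.99-fold and the collagen receptor Ddr2 at 2.50-fold, while Itga8, an integrin subunit of alveolar fibroblasts, was at 0.169. In the margin 1 of 16 was higher, Itga4 at 2.55-fold, beside 12.2% of all features. Of 14 genes of TGF-beta signalling, a pathway that induces matrix genes, 3 were higher in the core and 2 lower. These counts too were close to the 22.2% and 15.5% over all features. The corepressor Tgif1 was at 3.87-fold, the latent TGF-beta binding protein Ltbp3 at 3.55-fold and the pseudoreceptor Bambi at 0.249. Tgif1 was at 2.82-fold in the margin, where it was the highest of the list.

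The marker list of activated fibroblasts was not higher in the core, at a summed 1.03 CP10k against 2.80 in far lung and 4.61 in the control section. Against far lung 3 of 5 genes were called lower and 1 higher, beside 15.5% and 22.2% of all features. Cthrc1 and Fap, defining markers of that list, had 2 counts each among the core spots. The smooth muscle and myofibroblast list stood at 0.806 in the core, 5.45 in far lung and 12.0 in the control section. Col9a1, a chain of a cartilage collagen chosen after its values were seen, had 110 counts in the core (0.603 CP10k), 34 in the margin, 7 in far lung and 0 in the control section.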
